A study of Mus musculus with 195 samples.

Results

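Neural stem cells (NSC) and embryonic stem cells kept in 2i medium (ESC-2i) were compared for the choice of polyadenylation site in 426 mouse genes. These are the genes with at least 20 sense transcript molecules in both populations and at least 2 sites that each held 10% or more of the molecules pooled over both. They were found among 1226 genes with enough molecules and among 19287 genes with any sense molecule in the cells used. For each gene, the 2 most used sites formed a pair, and the share of the longer isoform is the percentage of the molecules of the pair that ended at the downstream site. Of the genes, 315 had 2 such sites, 95 had 3 and 16 had 4 or more, and 407 are annotated as protein coding.

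All cells came from mouse line 46C, an embryonic stem cell line that carries GFP under control of the neural gene Sox1. ESC-2i were grown without serum, in N2 and B27 supplements with LIF (10 ng/ml) and a pair of kinase inhibitors, CHIR99021 at 3 μM and PD0325901 at 1 μM. NSC were derived from the same line by monolayer differentiation and sorted for GFP. They were then grown on laminin in N2 and B27 with EGF and bFGF (10 ng/ml), until GFP was lost and Nestin had risen. They are thus ES-derived neural progenitors rather than cells of a brain. The remaining population, ESC-FCS, was grown in 10% serum with LIF (10 ng/ml). Every population was sorted for small cells in G0/G1. The BATSeq protocol reads the 3′ end of each polyadenylated transcript together with a unique molecular identifier (UMI), and a UMI is counted as 1 molecule.

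The values rest on 33 ESC-2i cells with 368225 sense molecules (5342 to 21038 per cell) and 41 NSC with 151775 (1232 to 9031 per cell), so that an NSC cell gave a median of 3280 molecules and an ESC-2i cell 10852. Each population was prepared as 2 library batches of its own. Both populations used the same 24 cell barcodes, but no pair of batch and cell barcode was shared. Batch and population cannot be told apart. No separate cultures are named, so each population was treated as 1 sample, no p-value is given, and differences are called by size. All 9 markers of embryonic stem cells, among them Nanog, Esrrb and Tfcp2l1, were more frequent in ESC-2i, with 1248 molecules in all against 3 in NSC. Of 9 neural markers 8 were more frequent in NSC, with 776 molecules against 71, and Pax6 was not detected in either population.

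Most mammalian genes can be cleaved and polyadenylated at more than a single place. The cleavage complex recognizes a hexamer, most often AATAAA, shortly upstream of the cut, together with U- or GU-rich sequence downstream. Use of a downstream site in the last exon lengthens the 3′ UTR and leaves the protein the same, whereas use of a site in an intron or an upstream exon shortens the transcript itself. Neural cells are known for long 3′ UTRs, and proliferating and pluripotent cells for short ones.

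The end sequences of 7 genes that recur in the results are printed here as examples of paired sites. Each line gives the 30 bases of the transcript that end at the cut, in the 5′ to 3′ direction, from GENCODE M21 transcripts on build GRCm38. Capitals mark AATAAA or ATTAAA.
Cyb5b upstream site, chr8:107184069-107184098, plus strand: tctttttaagtaaatttatttttttaattc
Cyb5b downstream site, chr8:107187439-107187468, plus strand: AATAAAgatactgttttccttttcttgtcc
Tmed10 upstream site, chr12:85342797-85342826, minus strand: tctcattttagaccATTAAAatgtttgtgc
Tmed10 downstream site, chr12:85340615-85340644, minus strand: aactttcacaAATAAAagctagcagaaacc
Kpnb1 upstream site, chr11:97161539-97161568, minus strand: tgttgaacgatctgataaaataaccatttg
Kpnb1 downstream site, chr11:97159719-97159748, minus strand: ttctgAATAAAgtccgctttatttttattt
Rbx1 upstream site, chr15:81475229-81475258, plus strand: gtattttgtgtcaAATAAAgcctttaagtt
Rbx1 downstream site, chr15:81476332-81476361, plus strand: tcaaagttaattttAATAAAaatatttatg
Rpl5 upstream site, chr5:107908023-107908052, plus strand: taaagacAATAAAcatattgatcaagcagc
Rpl5 downstream site, chr5:107908974-107909003, plus strand: gaactttttAATAAAtgagtcatttgaatt
Hnrnpa1 upstream site, chr15:103244928-103244957, plus strand: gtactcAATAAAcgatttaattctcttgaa
Hnrnpa1 downstream site, chr15:103246657-103246686, plus strand: ctttggtttttttttttaAATAAActtttt
Enah upstream site, chr1:181903583-181903612, minus strand: ccttggtctaatatttaacacaatgtctgt
Enah downstream site, chr1:181902961-181902990, minus strand: ttgtgcgattgaAATAAAattgcagtatgt
The downstream site carried AATAAA in all 7 of these chosen genes, against 68.8% of the 385 downstream sites read over the 426 genes. In Rbx1, Rpl5 and Hnrnpa1 the upstream site carried it as well. The upstream sites of Cyb5b, Kpnb1 and Enah had neither hexamer within 40 bases.

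Longer isoforms held a larger share in NSC for most of the genes. The share was higher in NSC for 285 genes, lower for 137 and equal for 4, and its median was 51.3% in ESC-2i and 59.0% in NSC. The median difference, NSC minus ESC-2i, was 7.02 percentage points, and the quartiles were −4.09 and 16.6. Among the 4 pairings of an NSC batch with an ESC-2i batch, the median difference was between 5.56 and 7.78 points. Between the batches of 1 population, the median difference was 0 in ESC-2i (355 genes with at least 10 molecules of the pair in both batches) and 0.240 points in NSC (246 genes).

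**Figure D1:**
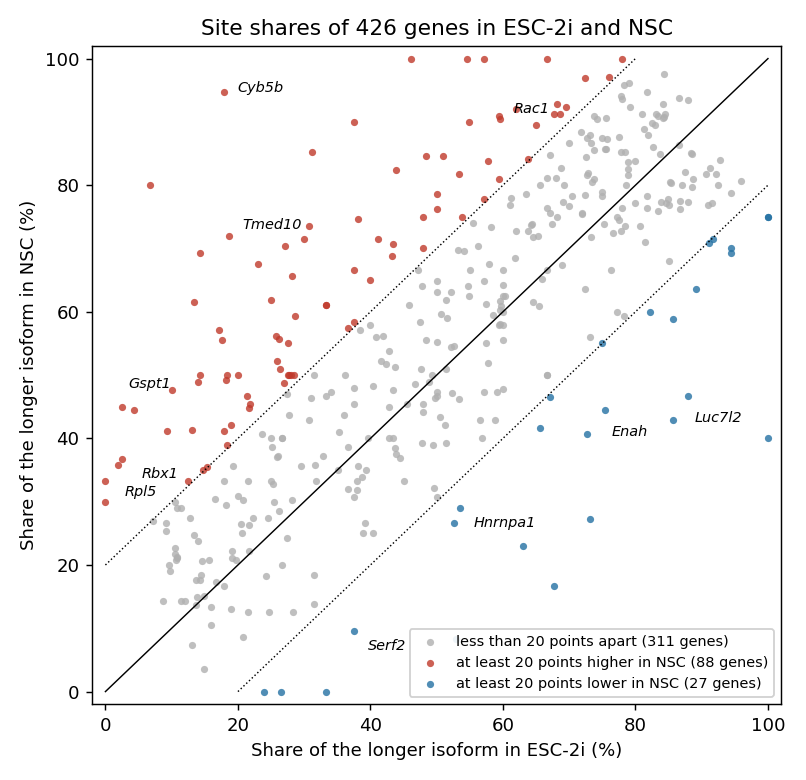
Share of the longer isoform (% of the molecules of the pair) in ESC-2i on the x axis and in NSC on the y axis, 1 point per gene, with dotted lines at 20 points on either side of equality. The 88 red points lie at least 20 points above the line of equality and the 27 blue points at least 20 points below it.

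A difference of at least 20 points was called. By this rule the share of the longer isoform was higher in NSC in 88 genes (20.7% of 426) and lower in 27 (6.34%). These are termed called longer and called shorter, whichever isoform was the main one in NSC. The genes next to the limit were Aes, at 20.0 points, and Cisd1, at 19.8, and on the other side Selenof, at −20.0, and Sssca1, at −19.2; all 4 are named for their values. Intervals that allow for counting error alone (exact Clopper-Pearson, 95%) did not overlap in 32 of the 88 and in 3 of the 27. Over all sizes of difference, they did not overlap in 35 genes with a higher share in NSC (8.22%) and 4 with a lower share (0.939%). At least 5 molecules in each batch were found for 77 of the 88 and 17 of the 27, and among these the difference had the same direction in all 4 pairings of batches in 69 and 10. The call was made on the sum of these same batches, so agreement in direction is partly built in. Its share over the 381 genes with 5 molecules in each batch was not counted.

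Differences of this size were also counted where the population stayed the same. Between the batches of 1 population, 57 of 355 genes in ESC-2i (16.1%) and 59 of 246 in NSC (24.0%) differed by 20 points or more, with 23 and 33 of them higher in batch 2. Additional single cells in the ESC-FCS medium had been sequenced as control cells, in an experiment of their own. In the 273 genes with at least 20 molecules in both, the control cells were 20 points or more above the first ESC-FCS cells in 39 and below them in 16, with a median difference of 1.03 points. The same 273 genes gave 58 and 10 for NSC against ESC-2i, with a median of 7.23. Differences of this size in single genes were thus common within a medium as well, while the median shift was larger between NSC and ESC-2i cells than between batches or between the ESC-FCS experiments.

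A pair of libraries, each made from 48 ESC-2i cells in bulk, lay between the single cells and NSC. They held 51526 and 56001 molecules of the pairs, against 34330 in the ESC-2i cells and 16831 in NSC, and the labels give them the same batch barcodes as the NSC batches. Their identity as embryonic stem cells was visible in the markers, with 1814 and 1864 molecules of the 9 embryonic markers and 153 and 249 of the neural ones, most of these from Vim. In the 375 genes with at least 20 pool molecules within 25 nt of the sites, the pools exceeded the ESC-2i cells by a median of 3.44 points, and NSC exceeded the pools by 3.59. With sites matched within 12 nt (373 genes), these medians were 3.98 and 3.44, so that the shift between pools and cells of the same medium was about as large as that between NSC and the pools. Compared with the ESC-2i cells, the pools were at least 20 points higher in 75 genes and at least 20 points lower in 37 (25 nt), or in 72 and 37 (12 nt). Compared with the pools, NSC had a longer isoform share at least 20 points higher in 75 genes and at least 20 points lower in 50. Of the 78 genes called longer against the single cells that had 20 pool molecules, 61 kept the direction and 32 the size; of 24 genes called shorter, 22 kept the direction and 15 the size. The call was made on the same NSC values, so agreement in direction is partly built in. Over all 375 genes, NSC was higher than the pools in 211 and lower in 164. What sets pools and single cells of the same medium apart was not tested.

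Single cells showed the shift in the sum over all genes. The share of all molecules of the 426 pairs that were of the longer isoform had a lowest value of 44.8%, a median of 50.0% and a highest of 54.8% in the ESC-2i cells, and 51.0%, 59.4% and 65.2% in the NSC. The populations overlapped at their edges: 33 of 41 NSC lay above the highest ESC-2i cell, and all 41 lay above the ESC-2i median. ESC-FCS cells were spread from 43.1 to 60.7%, with a median of 54.0%, between the other two. The ESC-FCS control cells had a median of 57.9% and the pool of 48 ESC-FCS cells a share of 58.0%, above the first ESC-FCS cells and close to the NSC median. The ESC-2i pools were at 55.3 and 55.5%, both above the highest single ESC-2i cell. With each gene centred on its mean share in both populations, so that the mixture of genes in a cell counts less, the difference between the medians of NSC and ESC-2i was 6.80 points in place of 9.38, and 34 NSC lay above the highest ESC-2i cell.

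**Figure D2:**
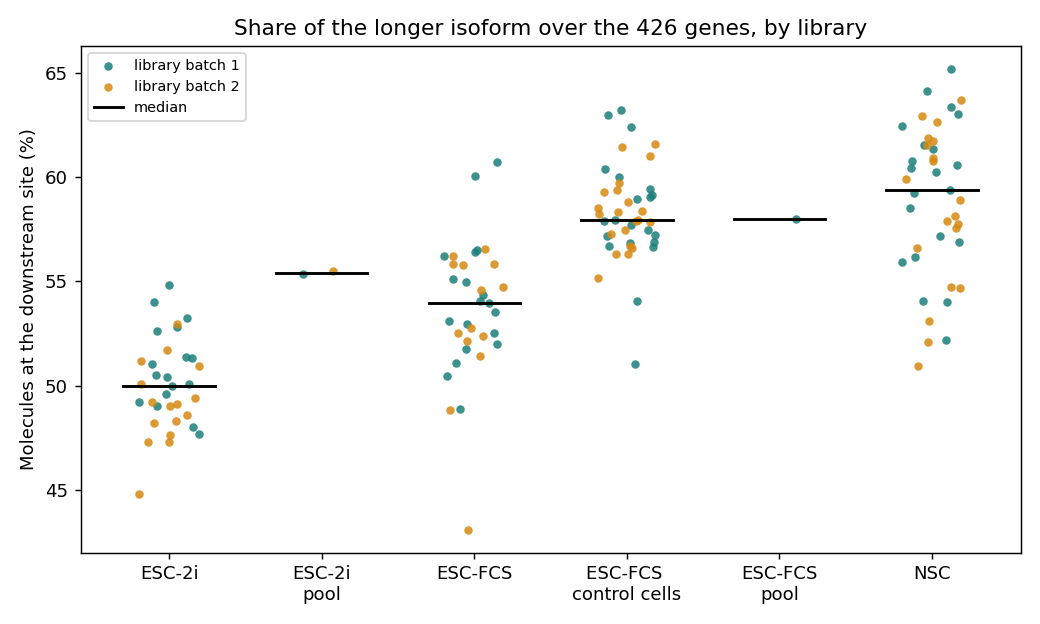
Percentage of the molecules of the 426 pairs that ended at the downstream site, 1 point per library, coloured by the library batch within each group (for pools, by pool), with a line at the median. The 41 NSC sit between 51.0 and 65.2% and the 33 ESC-2i cells between 44.8 and 54.8%, and the ESC-2i pools lie at 55.3 and 55.5%.

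The named genes are the 15 with the widest gap between intervals among the 69 called longer and stable in direction, and all 10 such genes called shorter, 25 in all. Cyb5b (ENSMUSG00000031924), the cytochrome b5 of the outer mitochondrial membrane, had the longer isoform in 7 of 39 molecules in ESC-2i (17.9%, 95% interval 7.54 to 33.5) and in 18 of 19 in NSC (94.7%, 74.0 to 99.9). The batches were at 6.67 and 25.0% in ESC-2i and at 90.0 and 100.0% in NSC, and did not overlap. The upstream site was seen in 18 ESC-2i cells and in 1 NSC cell. The pools held 55.8% of 113 molecules when sites within 25 nt were matched, and 0% within 12 nt, because their downstream end was recorded just beyond that limit.

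Tmed10 (ENSMUSG00000021248), a cargo receptor of the early secretory pathway, had 11 of 59 molecules at the downstream site in ESC-2i (18.6%, 9.69 to 30.9) and 36 of 50 in NSC (72.0%, 57.5 to 83.8). Its batches were at 22.7 and 16.2% in ESC-2i and 77.4 and 63.2% in NSC. The ESC-2i pools were low as well, at 11.2% of 160 molecules, which made Tmed10 a gene in which pools and single cells stood together against NSC. Rac1 (ENSMUSG00000001847), a GTPase that organizes actin, went from 53 of 89 molecules (59.6%, 48.6 to 69.8) to 66 of 73 (90.4%, 81.2 to 96.1). Both NSC batches, at 91.9 and 88.9%, were above both ESC-2i batches, at 63.4 and 56.2%, but the ESC-2i pools were at 96.9%, above NSC.

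Map1b, which binds and stabilizes microtubules in growing neurons, was listed with 6 of 13 molecules at the downstream site in ESC-2i (46.2%, 19.2 to 74.9) and with all 30 in NSC. The upstream site thus had 0 of 30 molecules in NSC, which allows a share of up to 10.0%. Spast, which encodes the microtubule-severing enzyme spastin, had 18 of 33 (54.5%, 36.4 to 71.9) in ESC-2i and 18 of 18 in NSC, where the limit for the upstream site is 16.7%. Map1b was at 73.5% in the pools and 94.4% in ESC-FCS, and Spast at 29.4% and 66.7%. All 4 NSC values by batch of these genes were at 100.0%, against 42.9 to 56.5% in the ESC-2i batches.

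Genes of translation and protein turnover were found among those with a rare downstream site in ESC-2i. Each site of a pair had to reach the minimum share of the molecules pooled over both populations. A site below that share in ESC-2i could enter only with a higher share in NSC. The direction of the difference in the genes with such a site, Rpl5, Rbx1 and Gspt1, thus follows from the choice of sites. In the same way, a site below that share in NSC could enter only with a higher share in ESC-2i. This was so for the upstream sites of Cyb5b, Map1b, Spast, Rac1 and Eif1, whose direction thus follows from the choice of sites as well. Rpl5 (ENSMUSG00000058558), a protein of the large ribosomal subunit, had 3 of 157 molecules at its downstream site in ESC-2i (1.91%, 0.396 to 5.48) and 19 of 53 in NSC (35.8%, 23.1 to 50.2). The ESC-2i batches were at 0% and 4.41%, and the NSC batches at 34.6 and 37.0%. Rbx1 (ENSMUSG00000022400), the RING subunit of cullin ubiquitin ligases, had 3 of 120 (2.50%, 0.519 to 7.13) and 18 of 49 (36.7%, 23.4 to 51.7). In these genes the pools were not near the single cells: Rpl5 was at 42.4% of 347 molecules and Rbx1 at 94.3% of 35, both above NSC. Gspt1, the release factor eRF3a that ends translation, had 1 of 40 molecules (2.50%, 0.0633 to 13.2) in ESC-2i, 18 of 40 (45.0%, 29.3 to 61.5) in NSC and 11 of 651 (1.69%) in the pools. The downstream site of Gspt1 lay 4155 nt beyond the upstream site and past the annotated end of the gene.

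Eif1, which guards the choice of the start codon, was mostly long in both populations, with 83 of 121 molecules in ESC-2i (68.6%, 59.5 to 76.7) and 126 of 138 in NSC (91.3%, 85.3 to 95.4). Bzw1, a regulator of translation initiation, had 23 of 75 (30.7%, 20.5 to 42.4) and 39 of 53 (73.6%, 59.7 to 84.7). The ESC-2i pools exceeded NSC in both, at 98.3% for Eif1 and 79.5% for Bzw1.

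In the nucleus and in signaling, H2afz (ENSMUSG00000037894), the histone variant H2A.Z, was counted with the most molecules of the pair after Hspe1. It had 101 of 367 molecules at the downstream site in ESC-2i (27.5%, 23.0 to 32.4) and 126 of 229 in NSC (55.0%, 48.3 to 61.6), with batches at 26.3 and 28.6% and at 52.7 and 56.6%. The pools were at 76.6% of 141 molecules. Hnrnpa0, an RNA-binding protein of the hnRNP family, had 19 of 70 (27.1%, 17.2 to 39.1) and 38 of 54 (70.4%, 56.4 to 82.0), and the pools, at 69.7%, did not stand apart from NSC. Prkar1a, the regulatory subunit of protein kinase A, had 9 of 39 (23.1%, 11.1 to 39.3) and 25 of 37 (67.6%, 50.2 to 82.0), with the pools at 50.9%.

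Mitochondrial proteins closed the list. Slc25a4, the ADP/ATP carrier, had 43 of 113 molecules at its downstream site in ESC-2i (38.1%, 29.1 to 47.7) and 59 of 79 in NSC (74.7%, 63.6 to 83.8). Its batches were far apart within each population, at 25.0 and 47.7% in ESC-2i and at 58.5 and 92.1% in NSC, and ESC-FCS, at 77.9%, was above NSC. Hspe1, the mitochondrial co-chaperonin, had the most molecules of the pair among the 25 genes. Its downstream site, only 65 nt beyond the upstream site, took 125 of 463 molecules in ESC-2i (27.0%, 23.0 to 31.3) and 79 of 162 in NSC (48.8%, 40.8 to 56.7), and 15.8% of 57 in the pools.

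**Figure D3:**
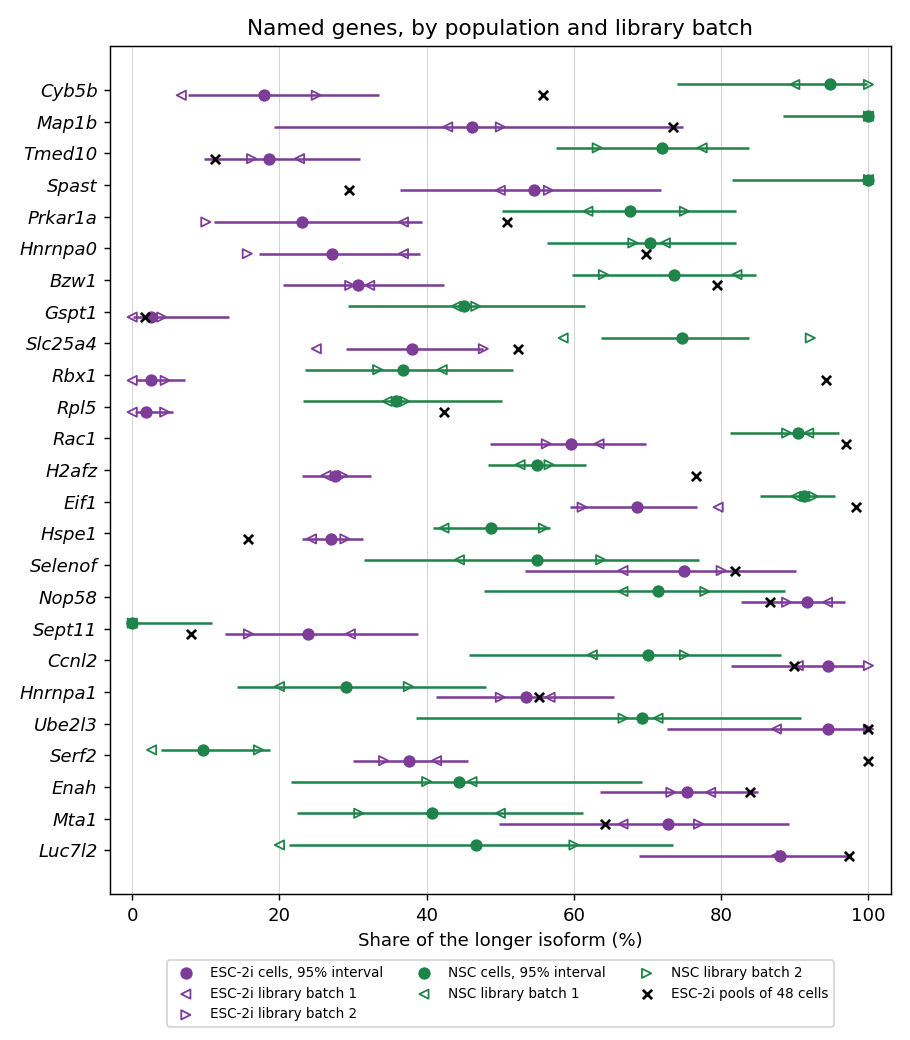
Share of the longer isoform (%) of the named genes in ESC-2i cells (purple) and NSC (green), with exact 95% intervals for counting error as bars, open triangles for the library batches and crosses for the ESC-2i pools (sites matched within 25 nt). In the 15 genes from Hspe1 upward the intervals do not overlap, and in 6 of them the cross lies to the right of NSC.

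The set of 15 was thus split by the pools: NSC exceeded the pools in 9 genes, by 20 points or more in 7 (Cyb5b, Map1b, Tmed10, Spast, Gspt1, Slc25a4 and Hspe1), and the pools exceeded NSC in 6. ESC-FCS lay between ESC-2i and NSC in 14 of the 15, which were chosen for a wide gap between those populations. All 15 had more molecules per 10000 at the downstream site in NSC, and 14 had fewer at the upstream site, with Gspt1 as the exception. The genes were called on the ratio of these same counts, so this largely follows from the call.

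The 10 genes called shorter in NSC rested on fewer molecules, and in 2 of them, Serf2 and Sept11, the intervals did not overlap. The downstream sites of Serf2 and Sept11 were below the minimum pooled share in NSC. The upstream sites of Ccnl2, Nop58 and Ube2l3 were below it in ESC-2i. The direction in these genes thus also follows from the choice of sites. Hnrnpa1 (ENSMUSG00000046434), a splicing regulator of the hnRNP family, had 38 of 71 molecules at the downstream site in ESC-2i (53.5%, 41.3 to 65.5) and 9 of 31 in NSC (29.0%, 14.2 to 48.0). The ESC-2i batches were at 56.8 and 50.0%, the pools at 55.2% of 391 molecules, and the NSC batches at 20.0 and 37.5%. Without the cell with most molecules in each population, the difference for Hnrnpa1 was −19.0 points in place of −24.5, short of the 20-point limit. Luc7l2, a factor of the U1 snRNP, had 22 of 25 (88.0%, 68.8 to 97.5) and 7 of 15 (46.7%, 21.3 to 73.4), with NSC batches at 20.0 and 60.0%. Ccnl2, a cyclin that takes part in splicing, had 34 of 36 (94.4%, 81.3 to 99.3) and 14 of 20 (70.0%, 45.7 to 88.1). Nop58, a core protein of box C/D snoRNPs, had 66 of 72 (91.7%, 82.7 to 96.9) and 15 of 21 (71.4%, 47.8 to 88.7), and its upstream site lies in an exon before the last.

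Sept11, a septin of the cytoskeleton, had 11 of 46 molecules at the downstream site in ESC-2i (23.9%, 12.6 to 38.8) and 0 of 32 in NSC, which allows a share of up to 9.38%. The pools were at 7.96% and ESC-FCS at 2.33%, near NSC. Enah (ENSMUSG00000022995), an actin regulator of the Ena/VASP family, had 52 of 69 (75.4%, 63.5 to 84.9) and 8 of 18 (44.4%, 21.5 to 69.2), and the pools were at 83.9% of 149 molecules. Serf2 had 59 of 157 (37.6%, 30.0 to 45.7) and 7 of 73 (9.59%, 3.94 to 18.8), but its downstream site, 7250 nt away, also lies in the annotated gene Hypk on the same strand, so that its molecules may belong to either gene. Mta1, a subunit of the NuRD chromatin complex, had 16 of 22 (72.7%, 49.8 to 89.3) and 11 of 27 (40.7%, 22.4 to 61.2) at sites 15 nt apart. Ube2l3, a ubiquitin-conjugating enzyme, had 17 of 18 (94.4%, 72.7 to 99.9) and 9 of 13 (69.2%, 38.6 to 90.9). Selenof, a selenoprotein of the endoplasmic reticulum, had 18 of 24 (75.0%, 53.3 to 90.2) and 11 of 20 (55.0%, 31.5 to 76.9) at sites 13 nt apart. Positions within 12 nt had been merged before deposit, so the pairs of Mta1 and Selenof lie just past that limit. Compared with the pools, NSC was lower in all 10 genes, although Serf2 had only 6 pool molecules. The genes were called on the same NSC values, so this is partly built in.

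Genes that the study singles out for their sites in other comparisons were less far apart, except Kpnb1. Kpnb1 (ENSMUSG00000001440), the importin beta that carries cargo into the nucleus, had 33 of 126 molecules at the downstream site in ESC-2i (26.2%, 18.8 to 34.8) and 34 of 61 in NSC (55.7%, 42.4 to 68.5). Its ESC-2i batches were at 42.2 and 17.3% and its NSC batches at 51.4 and 61.5%, and it was at 23.1% of 520 molecules in the pools and 65.4% in ESC-FCS. Hdlbp, an RNA-binding protein with KH domains, was at 28.2% (18.6 to 39.5) and 30.3% (15.6 to 48.7). Rps27l, a ribosomal protein, was at 72.4% (65.6 to 78.6) and 78.5% (66.5 to 87.7). Skp1a, a subunit of SCF ubiquitin ligases, was at 48.9% (38.2 to 59.7) and 49.0% (34.4 to 63.7), with ESC-2i batches at 32.7 and 71.1%. In these 3 genes the intervals overlapped, and the counts do not resolve a difference of a few points.

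Groups of genes were formed by symbol, and each member was counted in a single group. The nuclear transport group held 9 members, of which 5 were called longer (55.6%, against 20.7% of all 426) and none shorter, with a median difference of 22.3 points against 7.02. The 5 are the import receptors Kpnb1, Ipo5 and Ipo7, the export receptor Xpo1 and the tRNA exporter Xpot, named after their values were seen. The direction was the same in all 4 batch pairings for Kpnb1, Ipo7 and Xpot. Xpo1 was at 15.0 and 37.0% in the ESC-2i batches and at 25.0 and 66.7% in the NSC batches, which overlap, and Ipo5 overlapped as well. In the same group Ranbp1, a regulator of the Ran GTPase, was at 26.1% (24 of 92) and 37.3% (19 of 51).

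Of 32 genes of RNA processing, 5 were called longer and 1 shorter, with a median of 7.06 points. Within this group Ddx5, an RNA helicase, was at 13.4% (9.26 to 18.4) and 24.8% (17.3 to 33.6), and Hnrnpk at 10.8% (7.24 to 15.3) and 21.3% (14.5 to 29.4). Of 26 genes of the ribosome and translation, 4 were called longer and 1 shorter, with a median of 5.49 points, and the count for 21 genes of ubiquitin and the proteasome was 4 and 1, also with 5.49. Of 27 genes of mitochondria, 7 were called longer (25.9%) and none shorter. Among 12 cytoskeletal genes 4 were called longer and 1 shorter, and the median difference was 10.3 points. For 23 genes of membrane traffic and small GTPases the counts were 5 (21.7%) and 1, with a median of 3.78 points, below that of all 426. The counts were 4 and 0 for 13 genes of signaling, 3 and 0 for 13 chaperones, and 1 and 0 for 8 transporters and membrane proteins. The chromatin group, with 9 members, had 1 in each direction. Its most counted member was Npm1, a nucleolar chaperone, at 79.2% (944 of 1192) in ESC-2i and 92.3% (782 of 847) in NSC, a difference of 13.1 points with intervals apart, while the pools were at 97.8% of 2712 molecules. All 3 members of the metabolism group were called longer: Sms, a spermine synthase, Glul, the glutamine synthetase, and Pfkl, a phosphofructokinase, had differences of 28.3, 26.2 and 30.0 points. The intervals of all 3 overlapped, and the downstream site of Pfkl had molecules in 1 NSC batch only. That site was not seen in ESC-2i, so the direction in Pfkl follows from the choice of sites. The cell cycle group held only Ccnl2, and the group of cleavage and polyadenylation factors 3 genes, which are described with the factors. In the 226 genes outside these groups, 42 were called longer (18.6%) and 19 shorter (8.41%), with a median of 7.19 points.

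Genes with 3 or more sites showed where in the series of sites the molecules went. In these 111 genes, the share of the last site among all sites past the limit was higher in NSC in 80 and lower in 31, with a median difference of 8.62 points. The share of the first site was lower in NSC in 68, with a median of −4.17. Cyb5b had 68.1, 17.0 and 14.9% at its 3 sites in ESC-2i and 5.26, 0 and 94.7% in NSC. Rcc2, a regulator of chromosome condensation, moved stepwise, with 49.7, 38.8 and 11.5% in ESC-2i and 9.09, 42.4 and 48.5% in NSC. Rab11a, a GTPase of recycling endosomes, had 72.2, 25.0 and 2.78% in ESC-2i and 30.4, 39.1 and 30.4% in NSC. Both were chosen after their values were seen. For Slc25a4, the last of 4 sites held 26.2% of molecules in ESC-2i and 59.6% in NSC. The pair of most used sites did not tell the whole order in every gene: in Trip12, a ubiquitin ligase, the pair gave a lower share in NSC with 3 molecules, whereas its last of 3 sites held 17.5% in ESC-2i and 66.7% (6 of 9 molecules) in NSC.

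The median difference was larger where the sites were farther apart. The median difference was 2.50 points in 111 pairs under 100 nt apart, 6.65 in 110 pairs from 100 to under 500 nt and 10.2 in 205 pairs of 500 nt and over. Of the pairs under 100 nt, 16 were called longer and 6 shorter; of those at 500 nt and over, 54 (26.3%) and 18 (8.78%). In the 67 pairs at 2000 nt and over, the median was 9.61 points. Pairs in which both sites lay in the last exon, at an annotated end or downstream of it numbered 410 and had a median of 7.19 points. In the 16 pairs with a site in an intron or an upstream exon, the median was −8.30 points, with 5 genes higher and 11 lower in NSC. The median share in ESC-2i was 86.1% in these pairs and 50.0% in the 410, and a high share leaves little room for a rise. How much this level adds to the difference was not tested. Of the 16 pairs, 4 were called longer, namely Kif5b, Top1, Ddah1 and Ppm1a, and 5 shorter, namely Prrc2c, Ankrd11, Rps13, Rap1gds1 and Nop58, all but Nop58 named after their values were seen. Prrc2c had the lowest difference of all, −60.0 points, from 20 of 20 molecules at the downstream site in ESC-2i to 8 of 20 in NSC, and it rested on a single library batch, since the NSC batches were at 20.0 and 100.0%. Its upstream site was not seen in ESC-2i, so its direction follows from the choice of sites. The 8 genes of the mitochondrial genome, where polyadenylation follows other rules, had a median of −13.0 points.

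**Figure D4:**
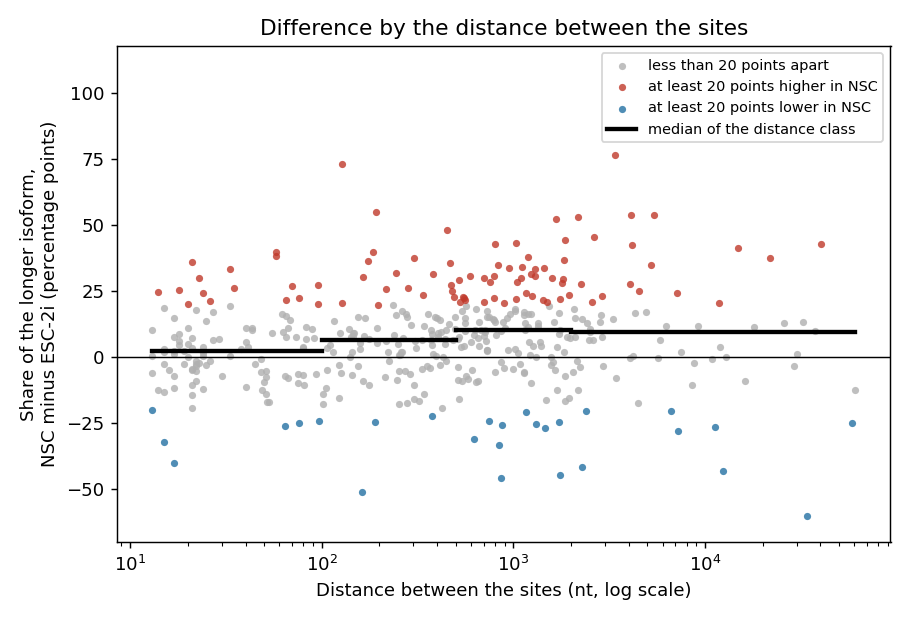
Longer isoform share, NSC minus ESC-2i (percentage points) against the distance between the sites (nt, log scale), 1 point per gene, with black bars at the median of each distance class. The bar is at 2.50 points under 100 nt and at 10.3 points from 500 to under 2000 nt.

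Genes were also split by their share in ESC-2i, which limits how far a difference can go in either direction. The same share is subtracted to form the difference, so counting error in it gives low genes a rise and high genes a fall. The minimum share of pooled molecules also left out sites that were rare in both populations. How much each of these adds to the counts by level was not tested. Of 87 genes with less than 25% of the longer isoform in ESC-2i, 75 were higher in NSC and 11 lower, and of 91 genes above 75%, 36 were higher and 55 lower. In the 248 genes between, where either direction had room, 174 were higher and 71 lower in NSC, with a median of 7.93 points, and 55 were called longer and 13 shorter.

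Hexamers were searched as AATAAA and, where that was missing, ATTAAA, on the transcript strand only, in the 40 bases that end at the cut. Of 3719 sites with at least 20 molecules that a transcript covers, 70.9% had AATAAA, 15.2% had ATTAAA and 14.0% had neither. Of the members' downstream sites, 68.8% of 385 had AATAAA, and of their upstream sites, 54.6% of 405, with 30.6% lacking both. In genes called longer in NSC, the upstream site had AATAAA in 53 of 87 and the downstream site in 57 of 83. In genes called shorter, these counts were 8 of 24 and 19 of 23. Where both sites had AATAAA, as in Rbx1 and Rpl5, the median difference was 9.40 points in 151 pairs, with 35 called longer and 7 shorter. Where AATAAA was found only downstream, as in Cyb5b and Kpnb1, it was 7.19 in 110 pairs, with 21 and 10, and where it was found only upstream, 8.60 in 56 pairs, with 15 and 0.

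Stretches of A just downstream of a site can prime reverse transcription within a transcript, and the authors filtered for this. Of the sites in the general set with 15 downstream bases in a transcript, 82 of 1652 still had at least 10 A among them, and of the members' upstream sites 44 of 379. Among upstream sites of genes called shorter, 4 of 22 did, and of genes called longer, 6 of 82. The share of A was 80.0% downstream of the upstream sites of Enah and Ube2l3 and 66.7% for Nop58 and Mta1. In these 4 genes that site held a larger share in NSC than in ESC-2i, and the part of such priming in their values was not tested. For Cyb5b, Kpnb1 and Tmed10, the share was between 20.0 and 26.7%. These genes do not stand for each direction as a whole. Slc25a4 and Rac1, called longer, had 53.3%, and Serf2 and Selenof, called shorter, had 6.67 and 26.7%.

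Expression was compared as molecules per 10000 sense molecules of the population, so that each value is relative to the rest of its population. Of the 1226 genes with 20 molecules in both populations, 261 were at least 2-fold higher in NSC (21.3%) and 60 at least 2-fold lower (4.89%), and the median log2 difference was 0.33. This minimum is stricter in NSC, where 20 molecules are 1.32 per 10000, than in ESC-2i, where they are 0.543. With 20 molecules in either population (3676 genes), 13.8% were at least 2-fold higher in NSC and 29.6% at least 2-fold lower. The balance of higher and lower genes thus depends on the minimum. The median of the 426 genes was 0.50, or 0.17 with median-ratio size factors, which put the median of all genes at 0; the values that follow are to be read against 0.33. Genes called longer had a median log2 difference of 0.71 and genes called shorter of 0.68, against 0.40 in the 311 genes called neither. Of the 88 called longer, 29 were at least 2-fold higher in NSC and 3 at least 2-fold lower, and of the 27 called shorter, 7 and 0. Counted from the median of all genes, 14 of the 88 were at least 2-fold above it and 4 at least 2-fold below, and 5 and 1 of the 27. Across the 426 genes, the difference in share and the log2 difference in expression had a Spearman correlation of 0.07 and a Pearson correlation of 0.04, a description over genes whose values come from the same molecules. In 54 genes at least 2-fold above the median expression difference, the median difference in share was 7.93 points, in 347 genes within 2-fold it was 6.73, and in 25 genes at least 2-fold below it was 7.31.

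**Figure D5:**
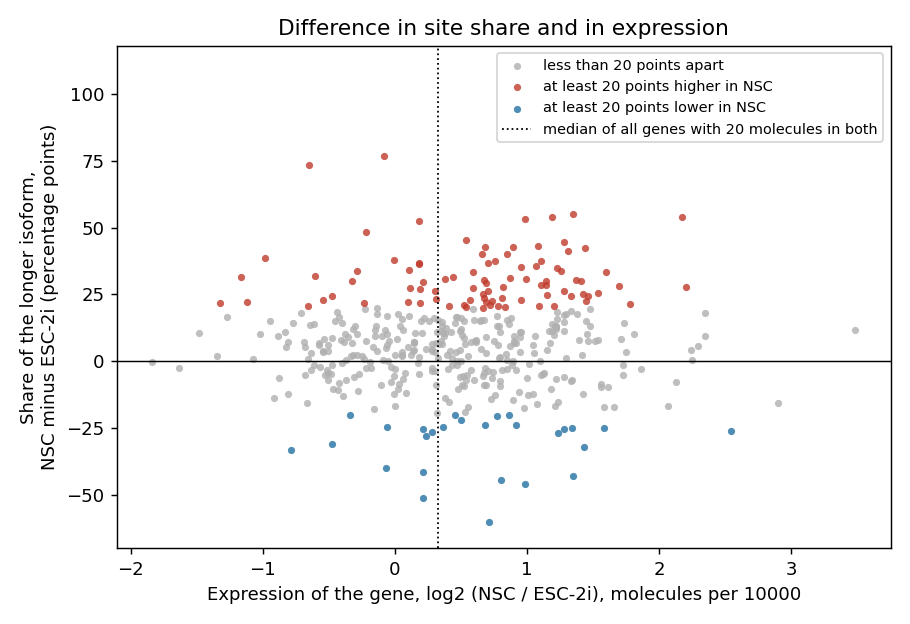
Longer isoform share, NSC minus ESC-2i (percentage points) against the log2 difference in expression of the gene (NSC over ESC-2i, molecules per 10000), 1 point per gene, with a dotted line at the median of 1226 genes (0.33). Red and blue points occur on both sides of the dotted line, and the Spearman correlation over the 426 genes is 0.07.

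Counts were also compared at the separate sites. In the 88 genes called longer, the downstream site had more molecules per 10000 in NSC in 83 and the upstream site fewer in 64, and both held in 59. In 24 genes the downstream site had more and the upstream site at least as many in NSC, and in 5 neither site had more. These counts were made per 10000 molecules, and no other scaling was tried for them. On this scale the median gene of the 1226 was higher in NSC by a log2 difference of 0.33. The median level of the downstream site in these genes was 0.326 per 10000 in ESC-2i and 1.09 in NSC, and that of the upstream site 0.733 and 0.527. Map1b had the largest log2 difference in expression among the named genes, 2.17, and only its downstream isoform was detected in NSC, with 0.163 per 10000 in ESC-2i and 1.98 in NSC. Cyb5b was level in expression, with a log2 difference of −0.08, while its downstream site went from 0.190 to 1.19 per 10000 and its upstream site from 0.869 to 0.0659. Rpl5 was lower in NSC by expression, with a log2 difference of −0.29, and its downstream site went from 0.0815 to 1.25. In the 27 genes called shorter, the upstream site had a median of 0.163 per 10000 in ESC-2i and 0.527 in NSC, and the downstream site 0.570 and 0.527. There the upstream site was lower in NSC in 1 gene only, which again largely follows from the call.

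ESC-FCS cells took an intermediate place in most of the called genes. They share no cells with the other populations, but their order is read against the same ESC-2i and NSC values. The called genes were chosen for a gap of at least 20 points between these values, so a further population falls within it more readily. How often it does so over all members was not counted. Of 80 genes called longer with at least 10 molecules of the pair in ESC-FCS, 57 had an ESC-FCS share between those of ESC-2i and NSC, 9 at or above NSC and 14 at or below ESC-2i. The median shares of the 80 were 28.1% (ESC-2i), 44.4% (ESC-FCS) and 63.5% (NSC). Of 22 genes called shorter, 12 were between, 3 at or below NSC and 7 at or above ESC-2i, with medians of 74.0, 62.1 and 42.6%. Over the 393 members with 10 molecules, ESC-FCS exceeded ESC-2i by a median of 3.57 points and NSC exceeded ESC-FCS by 3.33. The place of ESC-FCS also depended on the experiment. Summed over all pairs, the control cells in the same medium had a median of 57.9% per cell. The first ESC-FCS cells had 54.0% and NSC 59.4%.

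Of the cleavage and polyadenylation factors, 10 of 23 had at least 20 molecules in a population. Cstf2, the RNA-binding subunit of the cleavage stimulation factor, was at least 2-fold higher in NSC, at 1.65 per 10000 (exact Poisson interval 1.07 to 2.43, 25 molecules) against 0.788 (0.527 to 1.13, 29 molecules). Cstf1, another subunit of the same factor, was at 0.0659 (1 molecule) in NSC and 0.815 (30 molecules) in ESC-2i, and Pabpn1, the nuclear poly(A)-binding protein, at 0.198 (3 molecules) and 0.652 (24 molecules). Thus 1 of 10 was at least 2-fold higher and 2 were at least 2-fold lower, where 13.8% and 29.6% of the 3676 genes with 20 molecules in either population were. The median log2 difference of the 10 was 0.29. Nudt21 and Pcf11, known regulators of site choice, had 7 and 12 molecules in ESC-2i and 4 and 2 in NSC, too few for a comparison. Of the factors with a pair of sites of their own, Cpsf6, a subunit of cleavage factor I, was called shorter in NSC, with 9 of 17 molecules at the downstream site (52.9%, 27.8 to 77.0) in ESC-2i and 1 of 12 (8.33%, 0.211 to 38.5) in NSC. The last of the 4 sites of Cpsf6, which is not in its pair, held 14.8% of molecules in ESC-2i and 26.3% in NSC, the opposite direction. Cpsf1, another factor with a pair of sites, was at 83.3% (68.6 to 93.0) in ESC-2i and 90.9% (70.8 to 98.9) in NSC, with intervals that overlapped. The intervals of Cpsf6 overlapped, and so did those of Papola, the poly(A) polymerase, at 43.3% (25.5 to 62.6) and 40.0% (19.1 to 63.9).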

How the data were processed

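BATSeq libraries of single mouse cells and of pools of 48 cells were measured. The authors aligned reads to GRCm38 with GSNAP, kept unique alignments outside A-rich sequence, merged positions within 12 nt and counted UMIs per site; the deposited values are these raw counts, without normalization. The submitters' processing notes name HTSeq and R 3.0.2.

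Molecules were summed over the cells that are columns of the gene table. Antisense sites were left out. Sites are given 1-based, as the deposited position plus 1. Sites of the pools and control cells were matched within 12 nt, or within 25 nt where stated, a distance chosen after the data were seen; 6 control cells under 1000 molecules were left out. The symbol groups and the gene pair rule were chosen with earlier results of these data known. For named genes, called genes with the same direction in all 4 batch pairings were ranked by the gap between intervals, up to 15 per direction, with 4 genes of the study and the 2 most counted members of each group. No test was made, since no separate cultures are named and each population counts as 1 sample; intervals and limits cover counting error only. A limit for a count of 0 is 3 counts of the total. The calculation was tested on simulated data. Sequences and gene positions come from GENCODE M21. Python 3.11.15, numpy 2.4.6, pandas 2.3.3, scipy 1.17.1 and matplotlib 3.10.9 were used.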

Additional observations from a re-analysis of the deposited data

How the results depend on the processing

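The median difference stayed positive in all alternatives run, between 3.44 and 8.31 points, and from 6.02 to 7.40 when 1 library batch was left out. It moved by more than the spread of the 4 batch pairings with a minimum of 10 molecules (8.18), sites of 5% or more (4.91) or 20% or more (8.31), pairs at least 100 nt apart (8.18), and the ESC-2i pools in place of the cells (3.44 within 12 nt, 3.59 within 25 nt). The same was true without ESC-2i batch 2 (6.02). The counts of genes called longer and shorter were 357 and 131 at a minimum of 10 molecules, 29 and 3 at 40, 177 and 61 at a limit of 10 points, 43 and 10 at 30 points, and 57 and 12 with at least 20 molecules of the pair. Genes called shorter were 9 with sites of 20% or more and 51 or 50 against the pools (12 or 25 nt). Without 1 batch, 92 to 104 genes were called longer and 29 to 47 shorter, the 47 without NSC batch 2. The numbers of members differ between these settings, and what else moved the counts was not tested. The difference of the cell medians was 6.80 points when centred on each gene. The members' median log2 expression difference was 0.17 with median-ratio size factors. Without the cell with most molecules of the gene, 50 of 51 named genes stayed within their intervals, and Gspt1 moved to 50.0 points; Hnrnpa1, at −19.0 points, fell short of the 20-point limit. Removal of the mitochondrial genome, of pairs within another gene and of pairs under 20 molecules, and the 25 nt match, were chosen after the data were seen. No paired analysis was possible because the labels number wells, not replicates, and no test was made. Depth limits the single genes: those called shorter had a median of 20.0 molecules of the pair in NSC and 31.0 in ESC-2i.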
